A study of Mus musculus with 44 samples.

Results

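Cell cycle and proliferation genes were followed in brain cells sorted to enrich microglia, the resident macrophages of the brain. The cells came from mice with and without the 5xFAD amyloid transgenes. The set holds 42 genes of the 37583 in each deposited table, chosen by name for their known roles: 5 act in G1 and at the entry into S phase, 11 in DNA replication, 13 regulate G2 and mitosis, and 13 belong to the spindle, the kinetochore or mitotic chromosomes. All 42 were found in both tables. RNA came from brain cells sorted by flow cytometry on the surface proteins CD11b and CD45, from mice aged 8 months. The 27 female libraries comprised 5 NonTg;Trem2+/+ (without the transgenes, called NonTg here), 6 5xFAD;Trem2+/+, 9 5xFAD;Trem2 T96K/+ and 7 5xFAD;Trem2 T96K/T96K. The 17 male libraries comprised 5 5xFAD;Trem2+/+, 6 5xFAD;Trem2 T96K/+ and 6 5xFAD;Trem2 T96K/T96K, so the difference between 5xFAD and NonTg mice was measured in females. 5xFAD mice carry mutant human transgenes of familial Alzheimer's disease under a neuronal promoter and deposit amyloid plaques early. TREM2 is a lipid-sensing receptor of microglia, and T96K is a missense allele of it, carried here on 1 or both copies of Trem2.

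A cell that divides passes from G1 through DNA synthesis in S phase and through G2 into mitosis. Cyclins and their kinases drive each step, E2F factors switch on the genes of S phase, and many genes of G2 and mitosis are held silent in resting cells and peak together shortly before division. Microglia in the healthy adult brain divide rarely and renew themselves locally, and clusters of dividing microglia are known around amyloid plaques.

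The promoters of these genes show what they share in sequence. RefSeq promoters (mouse build GRCm38.p6, windows of 300 bases around the start of transcription) matched 33 of the 42 genes by symbol. Missing were Ccnd1, Ccne2, Ccna2, Aurkb, Foxm1, Kif20a, Mcm4, Tpx2 and Stmn1. Both strands were searched for 3 textbook cell cycle elements: CCAAT, the cell cycle homology region (CHR, as TTTGAA or TTCGAA, the latter being its own reverse complement) and an E2F element (TTTCGCGC or TTTGGCGC). Mcm7, Prc1 and Cdkn1a had more than 1 window, and a match in any window counted for the gene. Of the 33 genes, 26 (78.8%) held CCAAT, against 41.1% of the 27025 genes with a promoter. CHR letters stood in 18 (54.5%) against 21.7%, and all 18 also held CCAAT, a combination found in 8.61% of all genes. E2F letters stood in 5 (15.2%) against 0.929%. Such matches describe letters in a window and are no measure of binding. The sequences shown are the 150 bases before the start for genes whose levels are described in detail here, in lower case with the matched letters of either strand in capitals, and all 7 lie on the minus strand of the genome.
Cdk1: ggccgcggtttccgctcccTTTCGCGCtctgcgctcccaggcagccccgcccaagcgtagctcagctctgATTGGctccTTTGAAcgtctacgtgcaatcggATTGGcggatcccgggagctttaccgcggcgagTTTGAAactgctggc
Ccnb2: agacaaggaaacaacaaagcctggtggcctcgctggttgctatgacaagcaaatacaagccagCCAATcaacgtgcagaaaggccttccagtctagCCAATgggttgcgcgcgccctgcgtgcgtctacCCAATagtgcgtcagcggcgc
Top2a: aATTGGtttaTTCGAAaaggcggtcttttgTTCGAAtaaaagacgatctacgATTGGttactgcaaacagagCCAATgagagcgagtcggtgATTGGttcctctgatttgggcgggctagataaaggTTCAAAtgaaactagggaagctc
Mki67: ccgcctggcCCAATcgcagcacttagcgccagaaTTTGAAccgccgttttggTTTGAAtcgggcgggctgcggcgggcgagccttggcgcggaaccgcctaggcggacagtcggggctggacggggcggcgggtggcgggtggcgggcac
Mcm6: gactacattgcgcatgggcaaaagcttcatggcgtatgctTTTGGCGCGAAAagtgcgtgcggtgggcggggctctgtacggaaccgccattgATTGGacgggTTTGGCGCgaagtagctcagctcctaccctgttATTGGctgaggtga
Pcna: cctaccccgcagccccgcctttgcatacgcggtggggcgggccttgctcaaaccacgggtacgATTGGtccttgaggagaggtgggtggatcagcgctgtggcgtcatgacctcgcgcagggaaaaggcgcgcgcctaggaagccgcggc
E2f1: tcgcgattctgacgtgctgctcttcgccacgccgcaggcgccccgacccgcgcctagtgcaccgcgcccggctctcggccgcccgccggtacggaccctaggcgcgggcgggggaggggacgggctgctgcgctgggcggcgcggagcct
The windows are chr10:69352913-69353062 for Cdk1, chr9:70421555-70421704 for Ccnb2, chr11:99024190-99024339 for Top2a, chr7:135716380-135716529 for Mki67, chr1:128359706-128359855 for Mcm6, chr2:132253181-132253330 for Pcna and chr2:154569427-154569576 for E2f1. Cdk1 carries all 3 elements, Top2a and Mki67 carry CCAAT and CHR, and Mcm6 carries CCAAT and E2F letters, with 1 pair of overlapping E2F matches. Ccnb2 carries CCAAT in the bases shown. Its CHR matches lie outside them, at bases -167 to -162 before the start and at bases 5 to 10 just after it. Pcna carries CCAAT alone and E2f1 none of the 3. By role, CHR stood in 8 of 10 genes of the G2 and M regulators, in 8 of 10 of the spindle group, in 2 of 10 of the replication genes and in 0 of 3 of the G1 genes.

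Microglial markers were abundant in every library: over the 27 female and the 17 male libraries, Cx3cr1 ran from 244 to 1502 and from 467 to 938 RPKM, P2ry12 from 145 to 679 and from 260 to 480 RPKM, and Tmem119 from 153 to 868 and from 237 to 451 RPKM. Markers of other cells were present beside them. The neutrophil marker S100a8 ran from 13.5 to 3433 RPKM in females and from 942 to 4410 RPKM in males. The endothelial marker Ly6c1 ran from 226 to 1406 and from 289 to 1115 RPKM, so the libraries do not hold RNA of microglia alone. Libraries held 5.89 to 42.4 M reads (megareads): 10 held 26.5 to 42.4 M and 34 held 5.89 to 16 M, a split that no label names. It follows the library numbers: the deeper ones were the females numbered 25 and above and the males numbered 21 and above. A female library labelled 5xFAD;Trem2 T96K/+ (number 22) went against its labelled sex, with 0.416 RPKM of Xist against 16.9 to 147 in the other 26 females and 29.3 RPKM over Y-linked genes against at most 0.130. It was kept under its label. Without it 14, 8 and 10 members were again called in the comparisons with NonTg, and in T96K/+ 7 of the 8 were shared, with Ccna2 called in place of Rrm2. Levels are RPKM, reads per kilobase of gene, divided by the size of the library and, as deposited, by a further factor for each library. This factor ran from 1.03 to 1.26 in NonTg females and from 0.80 to 1.09 in 5xFAD;Trem2+/+ females. It ran from 0.859 to 1.04 in T96K/+ and from 0.840 to 1.05 in T96K/T96K females, and from 0.902 to 1.13 in males. A larger factor gives a lower level, and its part in the differences from NonTg was not tested on its own. Differences are log2 changes of RPKM + 1, which understates the change of genes near or below 1 RPKM. A gene was called when its adjusted p (limma, Benjamini-Hochberg over all genes tested) was under 0.05. Library numbers name libraries, and no label says which came from separate mice, so p-values measure the spread between libraries. In bulk RNA, more dividing cells and more RNA per cell cannot be told apart.

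The cell cycle genes spanned a wide range of levels. Over the 27 female libraries, mean levels ran from 0.355 RPKM for Bub1, a kinase of the spindle checkpoint, to 54.8 RPKM for Cdkn1a, which encodes the inhibitor p21. Below 1 RPKM on average were 14 genes, 17 lay between 1 and 5 RPKM, and 11 were at 5 RPKM or above. The highest after Cdkn1a were the helicase subunit Mcm3 at 22.8, the replication clamp Pcna at 21.3, the microtubule regulator Stmn1 at 18.6 and cyclin D1 (Ccnd1) at 10.3 RPKM. Among the 14 lowest were Mki67, Bub1, Cenpf, Kif11, Kif20a and Foxm1, which all act in G2 or mitosis. A gene was tested in a table where 5 or more libraries reached 1 RPKM, which 34 of the 42 did in each table. Failing in both were Ccne1, Foxm1, Bub1, Mki67, Kif11, Kif20a and Cenpf, with Nusap1 in females and Kif23 in males. Closest to the limit in females were Tpx2 with 6 such libraries and Kif20a and Kif11 with 4. Another 7 (Ccna2, Ccnb1, Birc5, Top2a, Kif23, Cenpe and Tpx2) passed with no NonTg library at 1 RPKM, so they entered the test through the 5xFAD libraries.

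In 5xFAD females with normal Trem2, 14 of the 34 tested cell cycle genes were higher than in NonTg females and none was lower. Over all 14591 genes tested, 13.5% were called higher and 10% lower, 23.6% in all. Of the 34, 29 had a positive change, and their median was 0.35 on the log2 scale against 0.04 for all genes. In 5xFAD;Trem2 T96K/+ females 8 were higher and none lower, against 10.3% and 7.07% of all genes (17.3% in all), with medians of 0.28 and 0.03. In 5xFAD;Trem2 T96K/T96K females 10 were higher and none lower, against 10.3% and 5.05% (15.3% in all), with medians of 0.35 and 0.03. Some called genes had passed the filter with no NonTg library at 1 RPKM. They were Ccna2, Birc5, Top2a, Cenpe and Tpx2 in Trem2+/+, Birc5 and Top2a in T96K/+, and Ccna2, Birc5, Top2a and Cenpe in T96K/T96K. The filter therefore favoured these counts and medians. With no filter on low values, all 42 entered, and 14, 6 and 9 were higher, against 6.72%, 4.81% and 4.9% of 27037 genes. None was lower, against 5.88%, 3.95% and 2.61% (12.6%, 8.76% and 7.51% called in all). The 3 comparisons share the 5 NonTg libraries, so their calls are not separate evidence. Library by library, 8, 4 and 8 of the 34 had every 5xFAD library of the group above every NonTg library, against 5.83%, 3.9% and 5.81% of all genes, and none had every library below, against 4.17%, 1.39% and 1.85%. Of these 8, 4 and 8, 4 (Ccna2, Birc5, Top2a and Cenpe), 2 (Birc5 and Cenpe) and 3 (Birc5, Top2a and Cenpe) passed the filter with no NonTg library at 1 RPKM, so the filter favoured them. With no filter the counts were 9, 4 and 9 of all 42 above and none below. Over all 37583 genes, many of them without reads, 2.46%, 1.57% and 2.41% were above and 1.99%, 0.655% and 0.889% below.

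**Figure D1:**
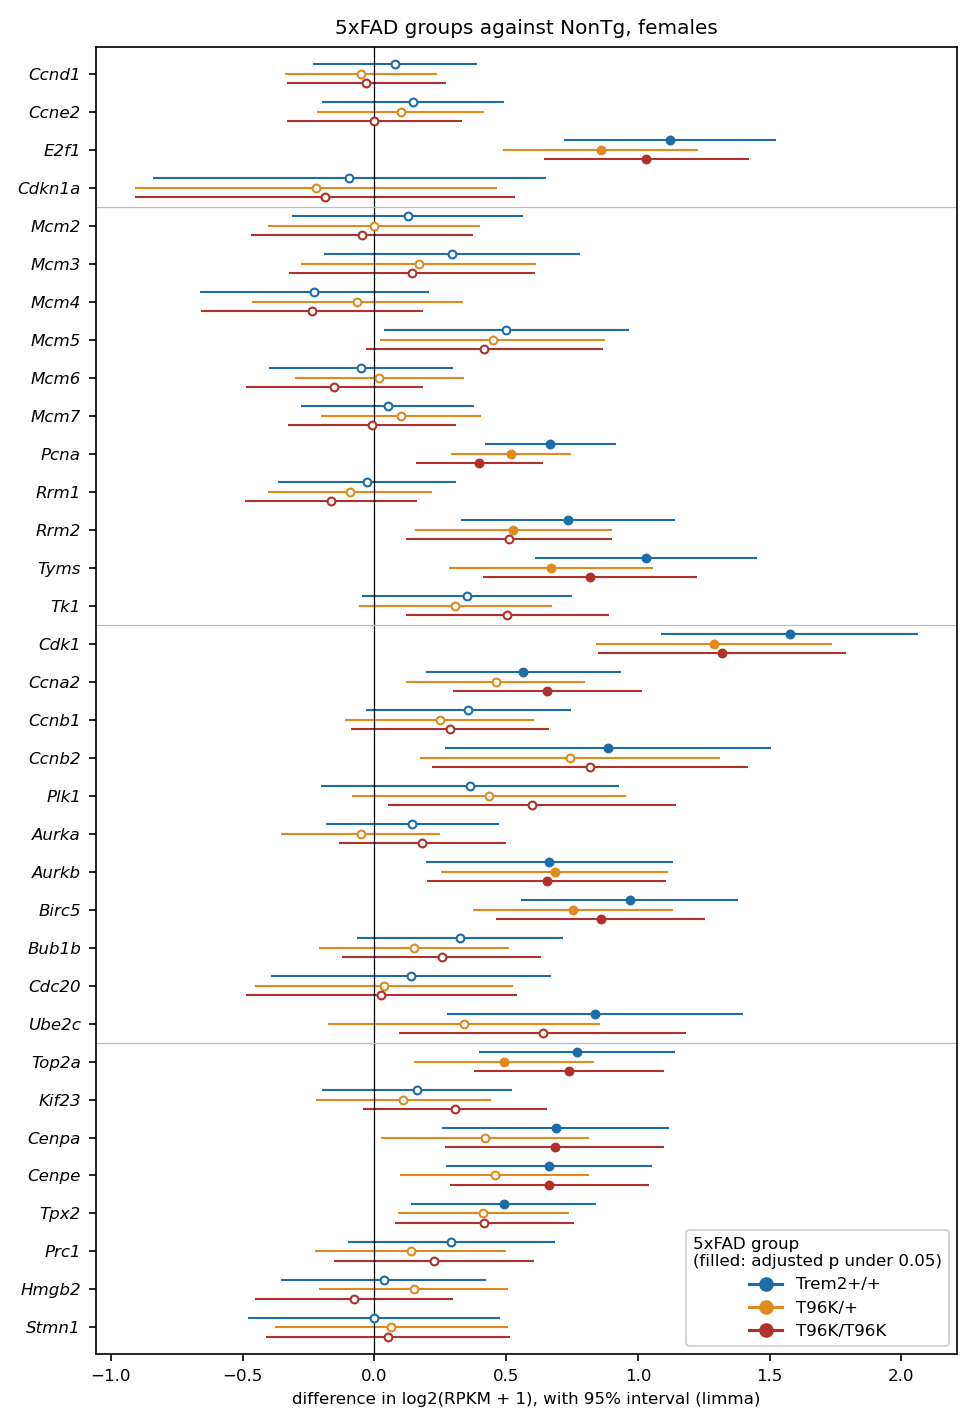
Difference in log2(RPKM + 1) between each female 5xFAD group and 5 NonTg libraries for the 34 tested cell cycle genes, ordered by role, with 95% intervals from limma. Filled points are the 14, 8 and 10 genes called at an adjusted p under 0.05, led by Cdk1, and all of them lie to the right of 0.

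Among the regulators of G2 and mitosis, 6, 3 and 4 of the 11 tested were called in the Trem2+/+, T96K/+ and T96K/T96K groups, in that order. Cdk1, the kinase that starts mitosis, had the largest log2 change of RPKM + 1 among those tested, a scale that understates genes near or below 1 RPKM. Its level in the NonTg females was 1.02, 0.719, 0.587, 1.42 and 2.06 RPKM in libraries 4, 10, 24, 28 and 30, on 23 to 268 reads. The lowest, median and highest levels were 3.5, 4.77 and 10.2 RPKM in Trem2+/+, 2.5, 4.01 and 8.39 RPKM in T96K/+ and 2.67, 4.11 and 6.43 RPKM in T96K/T96K. Every 5xFAD library lay above every NonTg library, and the 3 5xFAD groups overlapped each other. The log2 change against NonTg was 1.58 (SE 0.24, adjusted p = 2.88e-05) in Trem2+/+, 1.29 (SE 0.22, adjusted p = 0.000146) in T96K/+ and 1.32 (SE 0.23, adjusted p = 0.000197) in T96K/T96K. In 5xFAD;Trem2+/+ males, whose table was scaled apart, Cdk1 measured 4.93, 5.2, 5.0, 4.6 and 3.95 RPKM in libraries 1, 2, 7, 13 and 21.

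Birc5, which encodes survivin of the chromosomal passenger complex, stood at 0.37, 0.261, 0.315, 0.379 and 0.847 RPKM in the 5 NonTg libraries, taken here and for the genes that follow in the same order of library number. The lowest, median and highest levels were 1.01, 1.78 and 3.38 RPKM in Trem2+/+, 0.861, 1.19 and 3.58 in T96K/+ and 1.1, 1.65 and 2.13 in T96K/T96K. All 5xFAD libraries were above all NonTg libraries, of which library 30 was the highest. The log2 change was 0.97 (SE 0.20, adjusted p = 0.000937), 0.75 (SE 0.18, adjusted p = 0.00541) and 0.86 (SE 0.19, adjusted p = 0.00278) in the 3 groups. Aurkb, the kinase of the same complex, measured 0.33, 0.369, 0.233, 0.238 and 1.33 RPKM in NonTg, with library 30 again apart from the rest. Its levels reached 0.632, 1.27 and 2.6 RPKM in Trem2+/+, 0.941, 1.01 and 3.04 in T96K/+ and 0.936, 1.32 and 1.87 in T96K/T96K, ranges that take in NonTg library 30 and lie above the other NonTg libraries. The change from NonTg was 0.66 (SE 0.23, adjusted p = 0.0349), 0.68 (SE 0.21, adjusted p = 0.0247) and 0.65 (SE 0.22, adjusted p = 0.0441).

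The mitotic cyclins differed among themselves. Ccna2 (cyclin A2, a partner of Cdk1 and Cdk2) measured 0.647, 0.782, 0.349, 0.357 and 0.753 RPKM in NonTg. In the 5xFAD groups it stood at 0.912, 1.2 and 1.97 RPKM in Trem2+/+, 0.709, 1.1 and 2.51 in T96K/+ and 0.505, 1.73 and 1.94 in T96K/T96K. Of the 3 groups, Trem2+/+ alone lay wholly above NonTg. It was called in Trem2+/+, with a log2 change of 0.56 (SE 0.18, adjusted p = 0.0235), and in T96K/T96K, at 0.66 (SE 0.17, adjusted p = 0.0103), and not in T96K/+, at 0.46 (SE 0.17, 95% interval 0.12 to 0.80, adjusted p = 0.0558). About 14.6% of Ccna2 exon bases are shared with Exosc9 on the other strand in the mm9 annotation, and the library chemistry does not mark strand. Ccnb2 (cyclin B2) measured 1.43, 0.983, 1.51, 1.78 and 3.45 RPKM in NonTg and 1.95, 3.85 and 7.11 in Trem2+/+, which overlap through NonTg library 30. It was called in Trem2+/+ at 0.89 (SE 0.30, adjusted p = 0.033). In T96K/+ it ranged over 1.68, 3.09 and 11.3 RPKM, with a log2 change of 0.74 (SE 0.28, 95% interval 0.17 to 1.31, adjusted p = 0.0658), and in T96K/T96K over 2.13, 3.82 and 5.98 RPKM, with 0.82 (SE 0.29, 95% interval 0.22 to 1.42, adjusted p = 0.0567). Ccnb1 (cyclin B1) was called in none of the 3, with log2 changes of 0.36 (95% interval -0.03 to 0.75), 0.25 (95% interval -0.11 to 0.61) and 0.29 (95% interval -0.09 to 0.66).

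Ube2c, a ubiquitin-conjugating enzyme of the anaphase-promoting complex, measured 1.01, 1.17, 0.547, 0.85 and 1.48 RPKM in NonTg and 1.2, 2.63 and 4.65 RPKM in Trem2+/+, with overlap at the low end. It was called there, with a log2 change of 0.84 (SE 0.27, adjusted p = 0.027), and not in T96K/+, at 0.34 (SE 0.25, 95% interval -0.18 to 0.86, adjusted p = 0.404), or in T96K/T96K, at 0.64 (SE 0.26, 95% interval 0.10 to 1.18, adjusted p = 0.102). Its exons share 22.8% of their bases with Tnnc2 on the other strand. The other tested regulators were not called in any group. For the Trem2+/+ group the log2 changes were 0.36 (95% interval -0.20 to 0.93) for the mitotic kinase Plk1, 0.14 (95% interval -0.18 to 0.47) for the centrosomal kinase Aurka, 0.32 (95% interval -0.07 to 0.72) for the checkpoint kinase Bub1b and 0.14 (95% interval -0.39 to 0.67) for Cdc20, an activator of the anaphase-promoting complex. Each of these intervals includes 0. Levels of Plk1 in Trem2+/+ ran from 0.0543 RPKM, on 1 read, to 3.94 RPKM, against 0.552 to 1.22 RPKM in NonTg. In T96K/T96K, every library was above every NonTg library in Plk1, which was not called there, at 0.60 (SE 0.27, 95% interval 0.05 to 1.14, adjusted p = 0.129). Foxm1, a transcription factor of G2 and M genes, stayed below the filter, and its change without the filter was 0.25 (SE 0.14, adjusted p = 0.288) in Trem2+/+.

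In the spindle, kinetochore and chromosome group, 4, 1 and 3 of the 8 tested were called. Top2a, the topoisomerase that untangles replicated chromosomes, measured 0.445, 0.792, 0.31, 0.449 and 0.683 RPKM in NonTg. It measured 1.08, 1.61 and 2.29 RPKM in Trem2+/+, 0.499, 1.09 and 2.56 in T96K/+ and 1.16, 1.65 and 2.2 in T96K/T96K. The Trem2+/+ and T96K/T96K groups lay wholly above NonTg and the T96K/+ group overlapped it. The log2 change was 0.77 (SE 0.18, adjusted p = 0.00297), 0.49 (SE 0.17, adjusted p = 0.0415) and 0.74 (SE 0.18, adjusted p = 0.00424). Cenpa, the centromeric histone H3 variant, measured 1.71, 1.32, 1.45, 2.12 and 2.18 RPKM in NonTg, against 2.1, 3.46 and 6.03 in Trem2+/+, 1.69, 2.63 and 5.11 in T96K/+ and 2.25, 3.64 and 4.73 in T96K/T96K. Of these groups, T96K/T96K alone was wholly above NonTg. It was called in Trem2+/+ at 0.69 (SE 0.21, adjusted p = 0.0179) and T96K/T96K at 0.68 (SE 0.20, adjusted p = 0.0215) and not in T96K/+ at 0.42 (SE 0.19, 95% interval 0.02 to 0.82, adjusted p = 0.143).

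Cenpe, the kinesin of the kinetochore, measured 0.191, 0.373, 0.17, 0.277 and 0.336 RPKM in NonTg, all under 0.5 RPKM. It measured 0.476, 1.18 and 1.52 RPKM in Trem2+/+, 0.446, 0.657 and 1.81 in T96K/+ and 0.455, 0.841 and 1.78 in T96K/T96K. Every 5xFAD library exceeded every NonTg library. The log2 change was 0.66 (SE 0.19, adjusted p = 0.0126) in Trem2+/+, 0.66 (SE 0.18, adjusted p = 0.0136) in T96K/T96K and 0.46 (SE 0.18, 95% interval 0.10 to 0.82, adjusted p = 0.0738) in T96K/+, where it was not called. Tpx2, a spindle assembly factor that activates Aurka, measured 0.418, 0.233, 0.278, 0.196 and 0.69 RPKM in NonTg and 0.424, 0.87 and 1.83 in Trem2+/+, which overlapped. It was called there at 0.49 (SE 0.17, adjusted p = 0.0378), and not in T96K/+, at 0.41 (SE 0.16, 95% interval 0.09 to 0.74, adjusted p = 0.0716), or T96K/T96K, at 0.42 (SE 0.17, 95% interval 0.08 to 0.76, adjusted p = 0.0872).

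Mki67, the gene of the proliferation marker Ki-67, was too low for the filter. The NonTg libraries measured 0.43, 0.173, 0.445, 0.174 and 0.449 RPKM, on 15 to 159 reads. The 5xFAD levels were 0.507, 0.707 and 1.52 RPKM in Trem2+/+, 0.212, 0.552 and 1.15 in T96K/+ and 0.391, 0.777 and 1.08 in T96K/T96K. The Trem2+/+ libraries were all above NonTg and the T96K groups overlapped it. In the fit with no filter it was called in Trem2+/+ at 0.44 (SE 0.15, adjusted p = 0.048) and not in T96K/+ at 0.25 (adjusted p = 0.313) or T96K/T96K at 0.40 (adjusted p = 0.0854). Bub1 was also called in that fit in Trem2+/+, at 0.48 (SE 0.15, adjusted p = 0.0365). The NonTg libraries had 0.0506, 0.0267, 0, 0.0389 and 0.131 RPKM of Bub1, on 0 to 20 reads.

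The group also holds a pair of abundant genes that were not called. Hmgb2, a chromatin protein, measured 10.1, 7.33, 9.32, 7.75 and 7.74 RPKM in NonTg and 7.2, 8.15 and 11.7 in Trem2+/+, 5.26, 10.8 and 13.6 in T96K/+ and 5.75, 7.8 and 11.8 in T96K/T96K, which overlap throughout. Its log2 change in Trem2+/+ was 0.04 (95% interval -0.35 to 0.43). Stmn1, which encodes the microtubule destabiliser stathmin, measured 22.1, 12.3, 21.2, 14.8 and 18.8 RPKM in NonTg and 12, 16.2 and 35.4 in Trem2+/+, again overlapping. Its log2 change there was -0.00095 (95% interval -0.48 to 0.48). Prc1 and Kif23, which act in the central spindle at cell division, were not called, at 0.29 (95% interval -0.10 to 0.68) and 0.16 (95% interval -0.20 to 0.52).

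**Figure D2:**
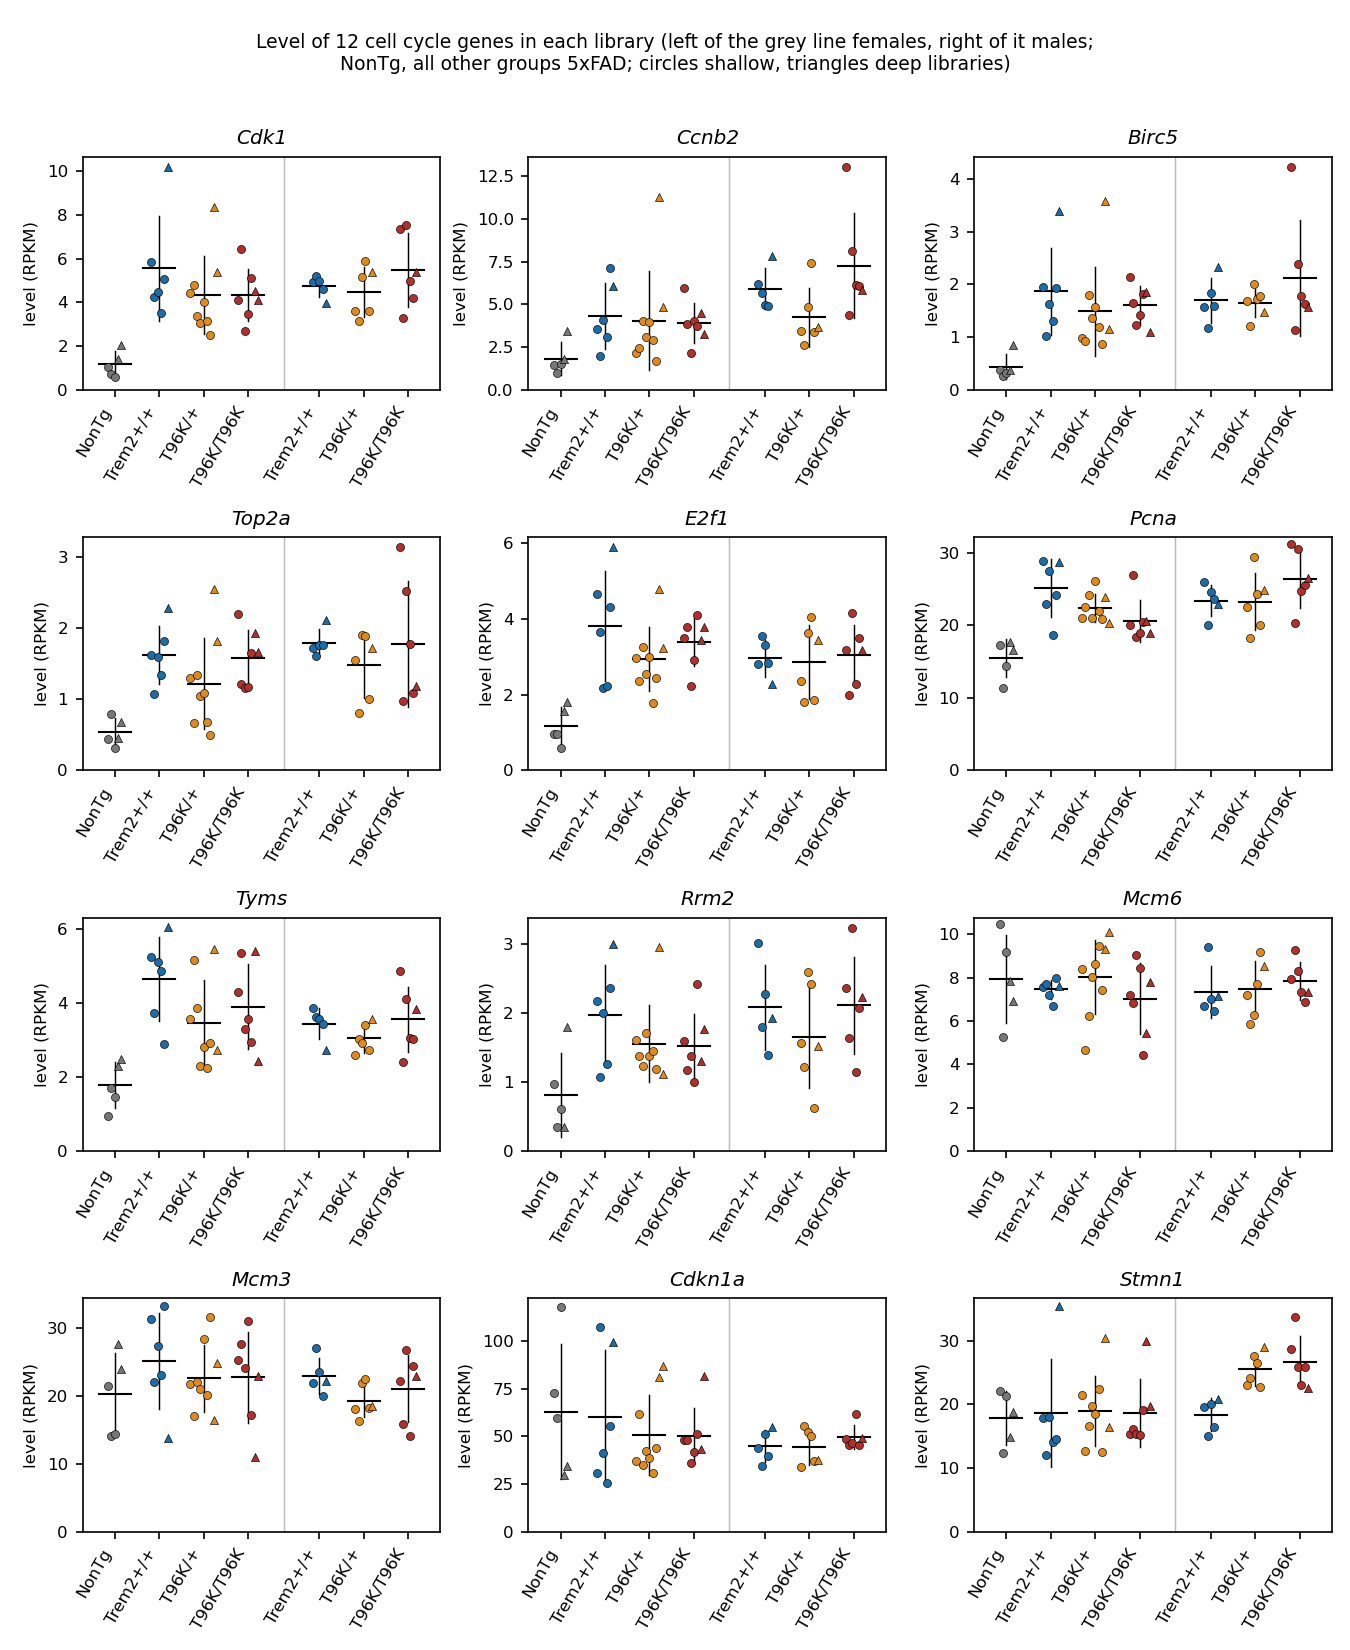
Level in RPKM of 12 cell cycle genes in each library of the 7 groups, with the group mean and SD as bars, circles for libraries under 20 M reads and triangles for deeper ones. Cdk1 lies between 0.587 and 2.06 RPKM in the NonTg libraries and at 2.50 RPKM or above in every female 5xFAD library.

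The 24 genes of G2, mitosis and the spindle other than Hmgb2 and Stmn1 were summed to show the libraries one by one. Hmgb2 and Stmn1 averaged 8.85 and 18.6 RPKM over the female libraries and were not called. With them in the sum, the relative difference between Trem2+/+ and NonTg would be smaller. Their summed level was 18.2 ± 4.90 RPKM in NonTg females (SD, n = 5), 39.8 ± 14.4 in Trem2+/+ (n = 6), 33 ± 15.1 in T96K/+ (n = 9) and 36.3 ± 6.80 in T96K/T96K (n = 7). Library 30, one of the deeper ones, was the highest NonTg library at 26.5 RPKM. All 3 female 5xFAD groups overlapped NonTg, with lowest libraries at 23.6 RPKM in Trem2+/+, 20.7 in T96K/+ and 22.8 in T96K/T96K. The T96K/+ group ran from 20.7 to 70.3 RPKM, and the top belonged to library 26, also a deeper one. Library 26 also had the highest sum of neutrophil markers in its group, 2037 RPKM. So did Trem2+/+ library 25, a deeper one and the highest of its group at 59.0 RPKM, with 6163 RPKM. In NonTg, library 30 held 358 RPKM of these markers, and library 24, the lowest at 14.1 RPKM, held 2791. In T96K/T96K, library 3, the highest at 43.4 RPKM, held 3355, and library 27, at 37.6 RPKM, held 5475. Among libraries under 20 M reads the T96K/+ sum was 26.8 ± 4.54 RPKM (n = 7), against 16.5 ± 2.26 (n = 3) in NonTg, 36 ± 12.2 (n = 5) in Trem2+/+ and 35.6 ± 8.18 (n = 5) in T96K/T96K. In males the sum was 43.5 ± 1.71 RPKM in Trem2+/+ (n = 5), 35.6 ± 8.88 in T96K/+ (n = 6) and 47.0 ± 16.8 in T96K/T96K (n = 6), where library 5 stood highest at 74.9 RPKM. Neutrophil markers summed to 2346 to 6896 RPKM in Trem2+/+, 1745 to 3713 in T96K/+ and 2895 to 8330 in T96K/T96K males. In T96K/T96K males the neutrophil markers summed to 8330, 2895, 6899, 8069, 3855 and 3140 RPKM in libraries 5, 6, 10, 11, 15 and 24. The cell cycle sums of these libraries were 74.9, 28.5, 58.2, 38.5, 38.2 and 43.5 RPKM in the same order. The part of neutrophils in the cell cycle sum was not tested.

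**Figure D3:**
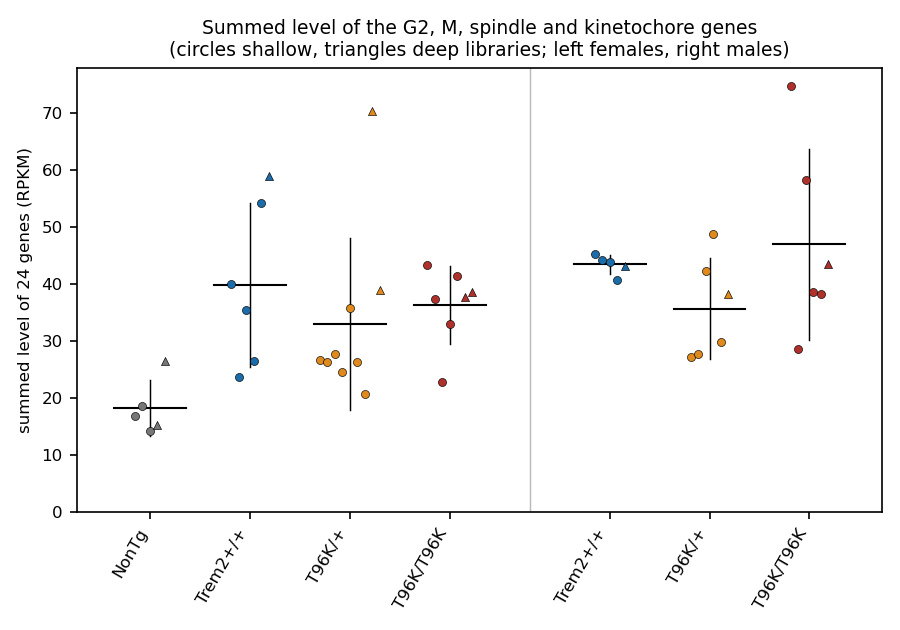
Summed RPKM of 24 genes of G2, mitosis and the spindle, without Hmgb2 and Stmn1, in each of 44 libraries by group. The 5 NonTg libraries lie between 14.1 and 26.5 RPKM, and T96K/+ library 26 (female) and T96K/T96K library 5 (male) are the highest at 70.3 and 74.9 RPKM. The lowest libraries of each female 5xFAD group lie within the NonTg range.

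Replication genes split. Called were 3, 3 and 2 of the 11: Pcna and Tyms in all 3 groups, and Rrm2 in Trem2+/+ and T96K/+. Tyms, thymidylate synthase, measured 0.948, 1.7, 1.46, 2.3 and 2.49 RPKM in NonTg, 2.89, 5.0 and 6.06 in Trem2+/+, 2.24, 2.94 and 5.47 in T96K/+ and 2.44, 3.59 and 5.4 in T96K/T96K. The Trem2+/+ libraries lay wholly above NonTg, while the lowest T96K libraries fell below the highest NonTg libraries. On the log2 scale the change was 1.03 (SE 0.20, adjusted p = 0.00065), 0.67 (SE 0.19, adjusted p = 0.0149) and 0.82 (SE 0.20, adjusted p = 0.00503). Pcna, the sliding clamp, measured 17.3, 11.4, 14.4, 17.7 and 16.6 RPKM in NonTg and 18.6, 25.8 and 28.9 in Trem2+/+, 20.3, 21.9 and 26 in T96K/+ and 18.4, 20.1 and 26.9 in T96K/T96K. Every 5xFAD library was above every NonTg library, by a small margin. Its log2 change was 0.67 (SE 0.12, adjusted p = 0.000251), 0.52 (SE 0.11, adjusted p = 0.00174) and 0.40 (SE 0.12, adjusted p = 0.0203). Rrm2, the small and cell cycle-limited subunit of ribonucleotide reductase, measured 0.97, 0.341, 0.611, 0.354 and 1.79 RPKM in NonTg and 1.07, 2.08 and 2.99 in Trem2+/+, overlapping through NonTg library 30. The change from NonTg was 0.73 (SE 0.20, adjusted p = 0.00792) in Trem2+/+ and 0.53 (SE 0.18, adjusted p = 0.0447) in T96K/+, and it was not called in T96K/T96K at 0.51 (SE 0.19, 95% interval 0.12 to 0.90, adjusted p = 0.0695).

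The helicase subunits and Rrm1, the large reductase subunit, were not called. None of Mcm2, Mcm3, Mcm4, Mcm5, Mcm6 and Mcm7, which form the replicative helicase, was called in any of the 3 groups. Mcm5 came closest in Trem2+/+, at 0.50 (SE 0.23, 95% interval 0.04 to 0.96, adjusted p = 0.112). It measured 4.16, 2.33, 3.48, 6.31 and 4.49 RPKM in NonTg and 3.9, 6.26 and 9.07 in Trem2+/+, which overlapped. Mcm6, whose promoter holds E2F letters, measured 10.5, 5.25, 9.19, 7.86 and 6.94 RPKM in NonTg and 6.71, 7.6 and 7.99 in Trem2+/+, with NonTg libraries 4 and 24 above every Trem2+/+ library. On the log2 scale the change was -0.05 (95% interval -0.40 to 0.30). The others were at 0.13 (95% interval -0.31 to 0.56) for Mcm2, 0.29 (95% interval -0.19 to 0.78) for Mcm3, -0.23 (95% interval -0.66 to 0.21) for Mcm4 and 0.05 (95% interval -0.28 to 0.38) for Mcm7. Rrm1 measured 11.2, 5.94, 9.85, 10.4 and 9.27 RPKM in NonTg and 5.54, 10.1 and 10.5 in Trem2+/+, and its log2 change was -0.03 (95% interval -0.36 to 0.31). Tk1, thymidine kinase, was at 0.35 (95% interval -0.05 to 0.75).

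In G1, 1 of the 4 tested genes was called, in all 3 groups. E2f1, the transcription factor of S phase genes, measured 0.949, 0.963, 0.592, 1.56 and 1.8 RPKM in NonTg, 2.18, 3.99 and 5.89 in Trem2+/+, 1.78, 2.97 and 4.78 in T96K/+ and 2.24, 3.5 and 4.1 in T96K/T96K. The Trem2+/+ and T96K/T96K groups lay wholly above NonTg, and 1.78 RPKM, the lowest T96K/+ level, fell just under the highest NonTg level. Its log2 change was 1.12 (SE 0.20, adjusted p = 0.000163), 0.86 (SE 0.18, adjusted p = 0.00144) and 1.03 (SE 0.19, adjusted p = 0.00035). Ccnd1, the cyclin that answers growth signals in G1, measured 10.3, 10.3, 10.7, 9.47 and 10.3 RPKM in NonTg, a narrow range, and 8.9, 10.8 and 14.7 in Trem2+/+. The change from NonTg was 0.08 (95% interval -0.23 to 0.39), and 21.3% of its exon bases are shared with Oraov1 on the other strand. Ccne1 (cyclin E1) measured 0.413, 0.175, 0.323, 0.368 and 0.171 RPKM in NonTg and 0.224, 0.634 and 0.974 in Trem2+/+, below the filter, and its change without the filter was 0.33 (adjusted p = 0.181). Ccne2 (cyclin E2) was at 0.15 (95% interval -0.20 to 0.49).

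Cdkn1a, the inhibitor p21, varied widely among libraries of a group. It measured 72.7, 59.4, 118, 29.5 and 34.6 RPKM in NonTg libraries 4, 10, 24, 28 and 30. The 2 lowest, 28 and 30, were the 2 deeper libraries. The 5xFAD groups spanned 25.6, 48.3 and 107 RPKM in Trem2+/+, 30.5, 42.2 and 86.8 in T96K/+ and 35.9, 48 and 81.8 in T96K/T96K. The log2 change in Trem2+/+ was -0.09 (95% interval -0.84 to 0.65). Among libraries under 20 M reads the estimate was -0.80 (SE 0.33, adjusted p = 0.0818) in Trem2+/+, -0.97 (SE 0.31, adjusted p = 0.0334) in T96K/+ and -0.82 (SE 0.33, adjusted p = 0.0816) in T96K/T96K. Among the deeper libraries it had the opposite sign, at 1.60, 1.37 and 0.88, none called. These are 2 NonTg libraries against 1, 2 and 2, with the lone Trem2+/+ library assumed to vary like the others, so these estimates carry little weight.

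Markers of other cell types differed in the same contrast. The 8 endothelial markers (Cldn5, Pecam1, Cdh5 and others) summed to 1854 ± 634 RPKM in NonTg (1255 to 2782), 786 ± 232 in Trem2+/+ (448 to 1023), 944 ± 372 in T96K/+ (447 to 1594) and 1296 ± 587 in T96K/T96K (803 to 2541). Of the 8, 8, 6 and 1 were called lower in the 3 groups, and none of the 8 was under 1 RPKM in all libraries of a group. The 10 neutrophil markers, of which 8 were tested and none called, summed to 101 to 2791 RPKM in NonTg, 423 to 6163 in Trem2+/+, 34.4 to 2037 in T96K/+ and 1090 to 5475 in T96K/T96K. In each group 1 or 2 of them were under 1 RPKM in every library. Mural cell markers were called lower in 3, 2 and 1 of 5, astrocyte markers in 5, 1 and 5 of 8 with 1 higher in each group, oligodendrocyte markers in 1, 2 and 2 of 10 and oligodendrocyte precursor markers in 1, 1 and 2 of 3 tested. Of 7 markers of border-associated macrophages 1, 1 and 0 were called higher, of 6 tested monocyte markers 1, 0 and 0 lower, and of 4 tested B cell markers 1 higher in each group. None of the 5 erythroid and 4 neuronal markers tested was called, and no T or NK cell marker was tested. Of the 9 microglial markers reported, 7, 7 and 6 had a positive change, with medians of 0.47, 0.39 and 0.28 on the log2 scale. In Trem2+/+, Aif1 was called higher, at 0.87 (adjusted p = 0.0130), and the highest of the rest were Gpr34 at 0.81, Fcrls at 0.80 and Cx3cr1 at 0.54. Tmem119 had the lowest value there, -0.57 (95% interval -1.40 to 0.26). In the T96K groups 0 of the 9 were called. The part of these cell types in the cell cycle result was not tested beyond a fit with the marker scores as covariates: 2 (Cdk1 and Pcna), 1 (Cdk1) and 3 (Cdk1, Birc5 and E2f1) members were then called higher. Calls over all genes in that fit are not given here, so a drop particular to these members cannot be read from it.

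Depth and single libraries also bear on these counts. Among libraries under 20 M reads, 14, 8 and 14 members were called higher, with Cdkn1a lower in T96K/+. Calls over all genes among these libraries are not given here. The deeper libraries alone were 2 NonTg libraries against 1, 2 and 2 of the 5xFAD groups, too few for the absence of calls there to bear on the counts, and the log2 difference of Cdk1 was 2.04 (SE 0.38, adjusted p = 0.101), 1.51 (SE 0.31, adjusted p = 0.106) and 0.96 (SE 0.31, adjusted p = 0.343). Under quantile normalization 8, 5 and 7 were called higher and none lower. There the calls over all genes in Trem2+/+ turned from 1972 higher and 1466 lower to 1524 and 1807, in T96K/+ from 1498 and 1032 to 1238 and 1392, and in T96K/T96K from 1499 and 737 to 1258 and 1379. The 14 calls in Trem2+/+ became 9 without NonTg library 24 and 8 without Trem2+/+ library 25. The 8 calls in T96K/+ became 4 without NonTg library 4 and 5 without NonTg library 24 or 28.

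Further genes of the same phases were counted from lists of textbook genes, to be read against the 13.5%, 10.3% and 10.3% of all genes called higher and the 10%, 7.07% and 5.05% called lower in Trem2+/+, T96K/+ and T96K/T96K. Of 42 tested genes of G2 and M phase outside the set, 13, 5 and 9 were called higher and 2, 2 and 1 lower in the 3 groups, a share of higher calls above that of all genes in Trem2+/+ and T96K/T96K and near it in T96K/+, with median log2 changes of 0.36, 0.26 and 0.36. The smallest p was that of Gas2l3, a cytoskeletal protein of cell division, at 1.94 (SE 0.18, adjusted p = 4.07e-08) in Trem2+/+, 1.72 in T96K/+ and 1.80 in T96K/T96K. Lmnb1, lamin B1 of the nuclear envelope, was at 1.52, 1.54 and 1.32 on the same scale, and the mitotic kinase Pbk at 1.31, 0.91 and 1.17. Cks1b, a small partner of the cyclin-dependent kinases, was at 1.05, 0.83 and 0.95. Against these, Ncaph, a condensin subunit, fell by 0.88, 0.82 and 0.91 on the log2 scale.

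Of 33 tested S phase genes outside the set, 5, 4 and 2 were called higher and 0, 1 and 0 lower, with medians of 0.13, 0.04 and 0.04. The shares called higher were near or below those of all genes. The helicase Blm was at 0.67, 0.52 and 0.61 and Gins1, a subunit that activates the replicative helicase, at 0.68, 0.64 and 0.57, all called. Chaf1b, a histone chaperone of replicated DNA, was called at 0.55 in Trem2+/+ and 0.58 in T96K/+. Uhrf1, which guides maintenance methylation, was called at 0.60 in Trem2+/+, and Dbf4, the activator of the Cdc7 kinase, at 0.32 in T96K/+. Of 21 tested G1 regulators none was called higher and 1 lower in each group, at or below the shares of all genes: Ccnd3, cyclin D3, fell by 0.48, 0.51 and 0.49 on the log2 scale.

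Inhibitors and other brakes went both ways. Of 18 tested, 1, 1 and 1 were called higher, below the shares of all genes, and 5, 3 and 2 lower, against 10%, 7.07% and 5.05% of all genes. The higher one in each group was Cdkn3, a phosphatase that acts on cyclin-dependent kinases, at 1.03, 0.61 and 0.95. Cdkn1c, the inhibitor p57, fell by 1.07, 1.19 and 0.86, and the stress gene Gadd45g fell by 1.05, 1.19 and 1.02. Cdkn2b, the inhibitor p15, fell by 0.74 in Trem2+/+ and 0.76 in T96K/+. The antiproliferative gene Tob1 fell by 1.01 in Trem2+/+, and 1 of the 2 entries named Tob2 fell by 0.59 there. Of 19 tested p53 targets, 1 was called higher in each group and 2, 1 and 1 lower, which is below the all-gene shares for higher calls and near them for lower ones. Their median log2 changes were -0.30, -0.22 and -0.21, against 0.04, 0.03 and 0.03 for all genes, with 14, 13 and 16 of the 19 negative. The gene called higher was Bax, which promotes cell death, at 0.72, 0.58 and 0.76. Those called lower were Plk2, at -1.28, and the polymerase Polk, at -0.80, in Trem2+/+, the death receptor Fas, at -0.69, in T96K/+, and Sesn1, a stress gene, at -0.83, in T96K/T96K.

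The T96K allele was compared with normal Trem2 within 5xFAD mice of 1 sex. No cell cycle gene and no gene at all was called in females (0% of 14591 genes), by limma on RPKM or by voom on the recovered reads. At an unadjusted p under 0.05 there were 1 member and 523 genes (3.58%) for T96K/+ against Trem2+/+, 1 member and 544 genes (3.73%) for T96K/T96K against Trem2+/+, and 0 members and 514 genes (3.52%) for T96K/T96K against T96K/+. The median log2 difference of the 34 members was -0.13, -0.08 and 0.03 in the 3 comparisons, against -0.001, -0.007 and 0.005 for all genes. A negative difference was seen in 27, 27 and 14 members, counts that were not tested. No member had groups that did not overlap. Over all genes this held for 0.00685% higher and 0.0137% lower in T96K/+ against Trem2+/+, for 0.0206% and 0.0137% in T96K/T96K against Trem2+/+, and for 0% and 0.00685% in T96K/T96K against T96K/+.

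The 3 members with the smallest p are given for each comparison, none of them called. For T96K/+ against Trem2+/+ in females they were Ube2c, at -0.50 (SE 0.24, 95% interval -0.98 to -0.01, adjusted p = 0.994), Tyms, at -0.36 (95% interval -0.73 to 0.01), and Top2a, at -0.28 (95% interval -0.60 to 0.05). For T96K/T96K against Trem2+/+ they were Pcna, at -0.27 (SE 0.11, 95% interval -0.50 to -0.04, adjusted p = 0.974), Rrm2, at -0.22 (95% interval -0.60 to 0.15), and Cdk1, at -0.26 (95% interval -0.70 to 0.19). For T96K/T96K against T96K/+ they were Aurka, at 0.23 (95% interval -0.04 to 0.51), Top2a, at 0.25 (95% interval -0.06 to 0.56), and Cenpa, at 0.26 (95% interval -0.09 to 0.62). The interval for Cdk1, the tested member with the largest log2 change of RPKM + 1 from NonTg, therefore runs from -0.70 to 0.19 on that scale between T96K/T96K and Trem2+/+. An adjusted p above the threshold does not show that the genotypes are alike.

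**Figure D4:**
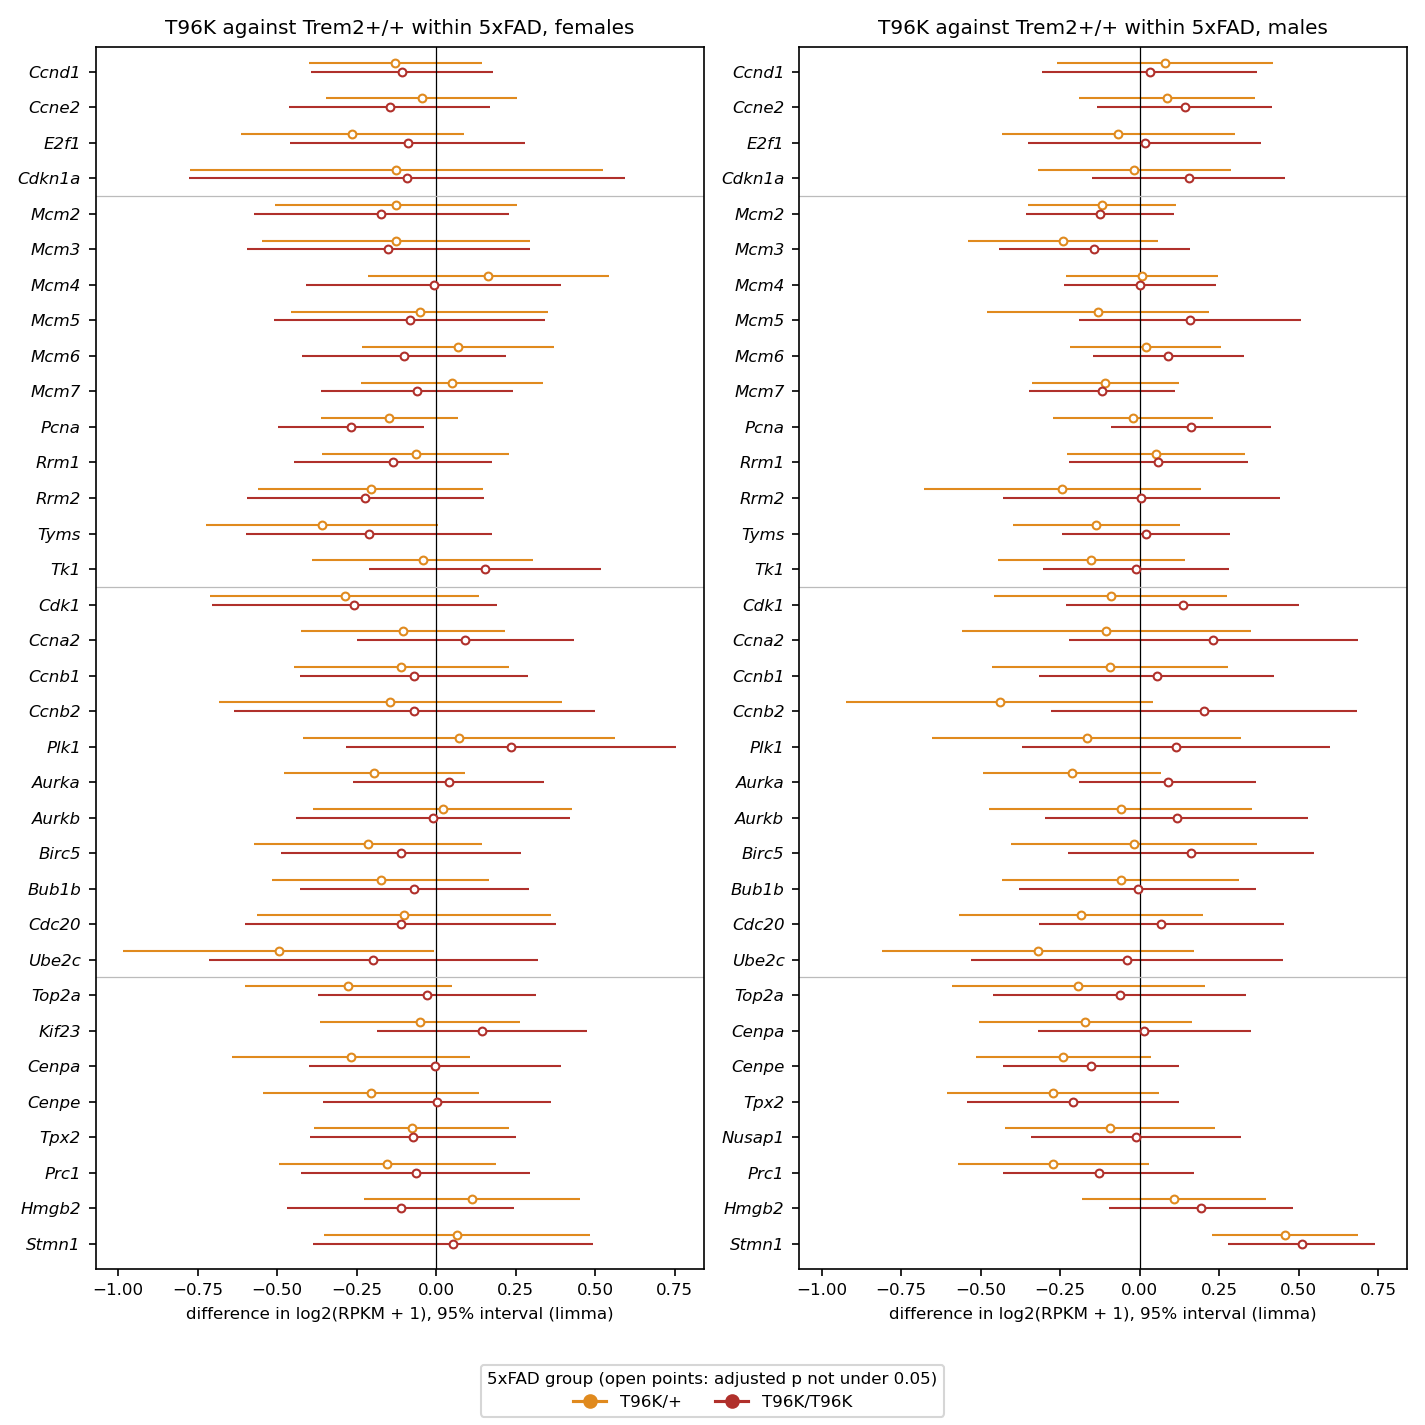
Difference in log2(RPKM + 1) of T96K/+ and T96K/T96K from Trem2+/+ within 5xFAD, for the 34 tested cell cycle genes of each sex, with 95% intervals from limma. No point is called. In males Stmn1 lies farthest to the right, at 0.46 and 0.51.

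In males, too, no cell cycle gene and no gene at all was called (0% of 13845 genes), by limma or by voom. At an unadjusted p under 0.05 there were 1 member and 1703 genes (12.3%) for T96K/+ against Trem2+/+, 1 member and 1193 genes (8.62%) for T96K/T96K against Trem2+/+, and 2 members and 342 genes (2.47%) for T96K/T96K against T96K/+. The median log2 difference of the 34 members tested in males was -0.11, 0.04 and 0.14 in these comparisons, against -0.016, -0.004 and 0.014 for all genes. A negative difference was seen in 27, 11 and 4 members, counts that were not tested. Stmn1 had the smallest p of the members in both comparisons with Trem2+/+. It measured 19.6, 15, 20.1, 16.4 and 20.8 RPKM in Trem2+/+ males (libraries 1, 2, 7, 13 and 21), 22.7, 25.3 and 29 RPKM (lowest, median and highest) in T96K/+ and 22.5, 25.9 and 33.7 in T96K/T96K. Every T96K library was above every Trem2+/+ library, which held for 0.679% of all genes in T96K/+ and 0.246% in T96K/T96K. The difference was 0.46 (SE 0.11, 95% interval 0.23 to 0.69, adjusted p = 0.218) in T96K/+ and 0.51 (SE 0.11, 95% interval 0.28 to 0.74, adjusted p = 0.316) in T96K/T96K. Both comparisons share the 5 Trem2+/+ libraries.

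Stmn1 is abundant in neurons and their precursors, and markers of other brain cells are given beside it. The 9 neuronal markers in the table summed to 18.9 ± 8.55 RPKM in Trem2+/+, 22.6 ± 7.57 in T96K/+ and 24.0 ± 12.4 in T96K/T96K males, with 3, 4 and 3 of them under 1 RPKM in every library, and overlapped. The 8 endothelial markers summed to 845 ± 358, 1380 ± 596 and 1142 ± 666 RPKM, and the 8 astrocyte markers to 183 ± 138, 271 ± 96.6 and 253 ± 156 RPKM. Their part in the Stmn1 difference was not tested. In females Stmn1 differed by 0.07 (95% interval -0.35 to 0.48) in T96K/+ and 0.05 (95% interval -0.39 to 0.49) in T96K/T96K.

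The next members by p in males were Ccnb2, at -0.44 (95% interval -0.92 to 0.04), and Prc1, at -0.27 (95% interval -0.57 to 0.03), for T96K/+ against Trem2+/+, and Hmgb2, at 0.19 (95% interval -0.10 to 0.48), and Pcna, at 0.16 (95% interval -0.09 to 0.41), for T96K/T96K against Trem2+/+. Between the T96K groups the difference in Ccnb2 (T96K/T96K minus T96K/+) was 0.64 (SE 0.22, 95% interval 0.18 to 1.10, adjusted p = 0.999). It measured 2.63, 3.56 and 7.45 RPKM in T96K/+ and 4.35, 6.11 and 13.1 in T96K/T96K, which overlapped, and 6.2, 5.68, 4.97, 4.9 and 7.84 RPKM in the Trem2+/+ libraries. Aurka, at 0.30 (95% interval 0.03 to 0.57), measured 0.517, 1.26, 1.23, 1.27, 1.08 and 0.955 RPKM in T96K/+ and 2.43, 1.32, 1.32, 1.28, 1.29 and 1.56 in T96K/T96K. These did not overlap, as for 0.0722% of all genes in that direction, and the highest T96K/+ library (1.27 RPKM) lay next to the lowest T96K/T96K library (1.28 RPKM). Mcm5 followed at 0.29 (95% interval -0.04 to 0.62).

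The other members described for females were measured in the same way in males. Mki67 measured 0.516, 1.12, 1.1, 1.03 and 0.396 RPKM in Trem2+/+ males, 0.255, 0.429 and 0.906 in T96K/+ and 0.241, 0.612 and 0.813 in T96K/T96K. Top2a measured 1.72, 1.61, 1.76, 1.77 and 2.12 RPKM in Trem2+/+, 0.814, 1.63 and 1.9 in T96K/+ and 0.972, 1.48 and 3.14 in T96K/T96K. Both genes overlapped among the 3 male groups. Birc5 measured 1.56, 1.16, 1.83, 1.58 and 2.33, Ccna2 1.9, 1.75, 1.53, 1.21 and 1.07, and Rrm2 3.02, 1.8, 2.28, 1.38 and 1.93 RPKM in the 5 Trem2+/+ males. Pcna measured 25.9, 20.1, 24.5, 23.6 and 22.9 and E2f1 2.82, 3.56, 3.3, 2.85 and 2.29 RPKM there, and Cdkn1a 43.9, 34.2, 51, 39.7 and 55 RPKM. Ccnd1 measured 10.3, 7.74, 11.7, 9.84 and 10.2 RPKM in these libraries.

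The T96K effects of the sexes were compared through the difference of differences, each effect taken within its own table. Of 33 members and 13636 genes tested, none was called for either genotype (0%). At an unadjusted p under 0.05 there were 0 members and 643 genes (4.72%) for T96K/+ and 1 member and 760 genes (5.57%) for T96K/T96K. For T96K/+, the members with the smallest p were Stmn1, at -0.39 (95% interval -0.92 to 0.14) (female minus male), Ccnd1, at -0.21 (95% interval -0.63 to 0.21), and Tyms, at -0.22 (95% interval -0.70 to 0.26). For T96K/T96K they were Pcna, at -0.43 (SE 0.16, 95% interval -0.76 to -0.10, adjusted p = 0.865), Stmn1, at -0.46 (95% interval -1.0 to 0.09), and Ccne2, at -0.29 (95% interval -0.70 to 0.12). The opposite signs of Pcna, with a negative change in females and a positive one in males, did not pass the test of their difference.

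Finally, Mki67 was related to 4 other members across the 5xFAD libraries under 20 M reads, within each sex (8 relations, on log2 of RPKM + 1, permutation tests of 100000 draws, 2-sided). With Top2a, Pearson's r was 0.55 and Spearman's rho 0.62 in 17 female libraries (p = 0.0210, adjusted p = 0.168, and p = 0.00978, adjusted p = 0.0782, by permutation), and r was 0.42 without the 2 libraries farthest from the median of Mki67. In 14 male libraries r was 0.54 and rho 0.53 (p = 0.0451, adjusted p = 0.181, and p = 0.0548, adjusted p = 0.219, by permutation), and r was 0.67 without 2. The relations of Mki67 with Mcm5, Ccnd1 and Cdkn1a had an r of 0.38, 0.41 and 0.22 in females, which fell to 0.03, 0.05 and 0.06 without 2 libraries, and of 0.23, -0.17 and -0.03 in males. None of the 8 passed after adjustment.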

How the data were processed

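RNA-seq values of 44 libraries were analysed as the authors deposited them: RPKM per gene for 37583 genes, in 1 table of 27 female and 1 of 17 male libraries. Per the labels' protocols, cDNA was made from poly(A) RNA with SMART-Seq v4 chemistry for low input and turned into libraries by Nextera XT. The series' design text gives alignment to mm9 by STAR. HTSeq and edgeR are further tools in the submitters' processing notes, which state neither their versions nor their use. Whole reads could be recovered from the RPKM of all libraries (every value within 0.01 reads) and were used for depth. edgeR and DESeq2, planned as alternatives, were not run, and voom was run on the recovered reads in their place. Libraries held 5.89 to 42.4 M reads.

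Here, log2(RPKM + 1) was tested with limma 3.58.1 in R 4.3.3 (trend and robust options). Each table was fitted on its own with all its groups, for genes that reached 1 RPKM in 5 or more libraries, and p-values were adjusted (Benjamini-Hochberg) over all genes. The 11 comparisons were 3 of 5xFAD groups with NonTg females, 3 between Trem2 genotypes in each sex and 2 between the sexes. Descriptions and permutation tests used Python 3.11.15, pandas 2.3.3 and scipy 1.17.1, and the fits were tested on simulated data. The 42 genes, the other gene lists and the tests were chosen with earlier results of these data known. Named with full statistics were all members called in a comparison, or else the 3 with the smallest p, a fixed set of 18 members by library, and from each other list the 4 called genes with the smallest p. Cdkn2b, Pbk, Cks1b and Gadd45g are also given in groups where they fell outside these 4. Promoter sequences were RefSeq's. 1 microglial marker of the list is not reported here.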

Additional observations from a re-analysis of the deposited data

Results flagged for a closer look

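A library was marked where its level lay far from the other libraries of its group, measured by its gap to the nearest library as a share of the group's range (Dixon's 95% limit). Of 238 such tests over the tested members, 22 (9.24%) marked a library, and chance marks about 1 in 20. NonTg library 30 was high in 3 genes of the chromosomal passenger complex and the spindle checkpoint, with 1.33 RPKM of Aurkb, 0.847 of Birc5 and 1.56 of Bub1b. Female T96K/+ library 26 was high in Birc5 (3.58 RPKM), Ccna2 (2.51) and Rrm2 (2.95). Female T96K/T96K library 27 was low in Mcm5 (2.26 RPKM) and high in Stmn1 (29.9). In the other females, Trem2+/+ library 25 was high in Stmn1 (35.4 RPKM), T96K/+ library 8 low in Mcm5 (3.26) and NonTg library 10 set apart in Tk1 (5.01). Among T96K/T96K females, library 34 was high in Cdkn1a (81.8 RPKM), library 9 high in Pcna (26.9) and library 15 low in Ccna2 (0.505).

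In males, Trem2+/+ library 2 was high in Mcm6 (9.40 RPKM). Among T96K/+ males, library 3 was low in Aurka (0.517 RPKM), library 9 set apart in Cenpe (0.872) and library 4 in Prc1 (0.510). Among T96K/T96K males, library 5 was high in Aurka (2.43 RPKM), library 11 was high in Cdkn1a (61.9) and low in Rrm1 (6.62), and library 6 was set apart in Tk1 (1.38).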

How the results depend on the processing

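Against NonTg, the 14, 8 and 10 members called in Trem2+/+, T96K/+ and T96K/T96K became 8, 5 and 7 with quantile normalization, 2, 1 and 3 with marker scores as covariates and 0, 0 and 0 in the deeper libraries alone, where 2 NonTg libraries met 1, 2 and 2. The depth set as a covariate gave 14, 13 and 13. Leaving out 1 library gave 8 to 15, 4 to 9 and 7 to 13. A pseudocount of 0.1 gave 14, 12 and 12, no filter 14, 6 and 9, only the groups compared 11, 6 and 10, voom on recovered reads 15, 12 and 12, and the shallower libraries alone 14, 9 and 14. By voom 3762, 2747 and 2441 genes were called in all, against 3438, 2530 and 2236 by limma on RPKM. Calls over all genes are otherwise given for quantile normalization and no filter alone. For the other settings, whether members moved with all genes cannot be read from these counts. Voom, the deeper libraries alone and the relation with a pseudocount of 0.1 were chosen after seeing the data. In the other 8 comparisons 0 members were called under every setting run. The Cdkn1a change from NonTg, -0.09 in Trem2+/+ over all libraries, was -0.80, -0.97 (called, adjusted p = 0.0334) and -0.82 in the shallower libraries and 1.60, 1.37 and 0.88 in the few deeper ones. Other changes of direction, among the values named, were of values not called: Cdk1 between T96K/T96K and Trem2+/+ females was 0.10 with marker scores, Top2a and Cenpa between T96K/T96K and T96K/+ females were -0.18 and -0.074 in the deeper libraries, and the male relation of Mki67 and Cdkn1a had r = 0.016 with a pseudocount of 0.1. The causes were not tested. edgeR and DESeq2 were not run, nor voom and the groups-only fit for the sex differences, nor the deeper libraries in males, with 1 library a group. No paired analysis was possible because groups of a sex share no library numbers. At NonTg levels under 1 RPKM, members rest on few reads (Mki67 15 to 159), which limits small differences.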
